A study of Mus musculus with 22 samples.

Results

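Innate-like and conventional lymphocytes of mouse mammary tumours were compared in 3 lineages, with 12 of the 22 RNA-seq libraries of the series. The innate-like populations were ILC1l cells (type 1-like innate lymphoid cells), TCRab+ILTC1 cells and TCRgd+ILTC1 cells (type 1 innate-like T cells with an αβ or γδ T-cell receptor). Each was set against the conventional population of its own lineage, which was cNK cells (conventional natural killer cells), TCRb+CD8a+NK1.1- cells or TCRgd+NK1.1- cells. Populations were taken from the sample labels and not from measured values, and each had 2 libraries. All cells were sorted from pooled mammary tumours of female C57BL/6 mice aged 20 to 24 weeks that carry PyMT, a viral oncogene that drives tumours of the mammary epithelium, and no treatment or deletion is labelled. ILC1l cells are spelled ILC1I in the labels of the first library and were taken as the same population. The labels do not say that the libraries of a population came from separate pools of animals, so p-values measure the spread between these libraries. The other 10 libraries, of 5 populations sorted by TCR, CD8α, NK1.1 and PD-1, were used in 1 check at the end.

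Natural killer (NK) cells and innate lymphoid cells are lymphocytes without a rearranged antigen receptor. Conventional NK cells circulate, while type 1 innate lymphoid cells stay in tissues, where the collagen-binding integrin CD49a (Itga1) marks them. Innate-like T cells have a T-cell receptor and also carry receptors typical of NK cells, such as NK1.1. All of these cells can kill with granzymes, serine proteases that enter the target cell with the help of the pore-forming protein perforin.

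Levels are given as CPM, which are counts relative to the TMM-scaled library total, for replicate 1 and then replicate 2. Differences are log2 values ± SE, innate-like minus conventional, and the mean of the 3 lineage-matched differences is the main measure. A gene was called where edgeR's quasi-likelihood F test gave a p under 0.05 after Benjamini-Hochberg adjustment over 16828 genes, and every adjusted p below is of this kind. The 12 libraries held 8696335 to 20602715 counts. The 2 libraries of a population correlated over log2 CPM with r of 0.927 for ILC1l, 0.936 for cNK, 0.802 for TCRab+ILTC1, 0.861 for TCRb+CD8a+NK1.1-, 0.911 for TCRgd+ILTC1 and 0.713 for TCRgd+NK1.1- cells, across genes that are not independent of each other. Where a named gene's call in the mean was lost when 1 library was left out, that library is named with the adjusted p of the fit without it.

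The sort markers followed the labels, with exceptions in the ILC1l cells and in both γδ populations. Klrb1c encodes the gating marker NK1.1, and its level was 1728 and 1482 CPM in ILC1l, 999.9 and 1171 in TCRab+ILTC1 and 1177 and 1472 in TCRgd+ILTC1 cells, and 2483 and 2438 in cNK cells. It was at 5.95 and 87.6 CPM in TCRb+CD8a+NK1.1- and 6.55 and 11.4 in TCRgd+NK1.1- cells, so replicate 2 of the former held more of it than the other 3 libraries sorted as NK1.1-. The NK receptor gene Ncr1 was at 1780.3 and 1648 CPM in ILC1l and 2735 and 2550.4 in cNK cells, and at 174 and 101 in TCRab+ILTC1 and 534 and 418 in TCRgd+ILTC1 cells. The 2 ILC1l libraries also held transcripts of the T-cell receptor complex. Cd3e, a signalling chain of that complex, was at 88.4 and 477 CPM in ILC1l cells, above the 0.622 and 6.13 CPM of cNK cells and below all 8 T-cell libraries, which ran from 585 to 1713 CPM. Cd8a was at 52.9 and 256 CPM in ILC1l and 0.156 and 2.58 CPM in cNK cells, and Trac, the α chain constant segment, at 24.3 and 138 CPM in ILC1l and 5.29 and 8.35 in cNK cells. Both γδ populations also held Trac, at 70.4 and 40.5 CPM in TCRgd+ILTC1 and 174 and 100.4 in TCRgd+NK1.1- cells, beside 791 and 804 in TCRab+ILTC1 and 636 and 556 in TCRb+CD8a+NK1.1- cells. Cd8a was at 198 and 341 CPM in TCRgd+ILTC1 and 320.2 and 426 in TCRgd+NK1.1- cells, below the 4 αβ libraries. The part of these transcripts in the NK and γδ differences was not tested.

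Markers of myeloid and epithelial cells differed between the libraries and moved with the conventional side. The summed level of 20 myeloid markers, such as the lysozyme gene Lyz2 and the complement gene C1qa, was 153.5 and 176.5 CPM in ILC1l, 694.7 and 108.0 in TCRab+ILTC1 and 154.9 and 187.0 in TCRgd+ILTC1 cells. It was 167.4 and 794.3 CPM in cNK, 990.8 and 1194 in TCRb+CD8a+NK1.1- and 8067 and 20410 in TCRgd+NK1.1- cells. The summed level of 17 epithelial markers without Cdh1, which lymphocytes also express, was 48.53 to 84.14 CPM in the 6 innate-like libraries. It was 72.75 and 151.8 CPM in cNK, 1802 and 3611 in TCRb+CD8a+NK1.1- and 4936 and 2694 in TCRgd+NK1.1- cells. Both lists had their highest library among the TCRgd+NK1.1- cells, cNK replicate 1 lay close to the innate-like libraries, and of these only TCRab+ILTC1 replicate 1 held myeloid markers near the level of cNK replicate 2. Of the 20 myeloid markers, 9 to 19 had counts in the innate-like libraries and 17 to 20 in the conventional ones, and the defining marker Adgre1 (F4/80) was at 0 in ILC1l replicate 1 and TCRab+ILTC1 replicate 2. Of the 17 epithelial markers, 4 to 12 had counts in the innate-like libraries and 11 to 17 in the conventional ones, and the milk gene Csn2 was at 0 in all 6 innate-like and in 4 of the 6 conventional libraries. All 20 myeloid markers had a mean difference below 0 and 15 fell. Of the 17 epithelial markers tested, Cdh1 included, 12 fell and Cdh1 rose. In the mean without the γδ lineage none of the myeloid and 6 of the epithelial markers fell, and without ILC1l replicate 2 there were 3 and 8 falls. Of 16828 tested genes, 771 (4.58%) followed one of the 2 lists with a correlation above 0.8 of their log2 CPM with the list mean over the series (without the TCRgd+NK1.1- libraries for the myeloid list), and the part of such cells in the genes that were lower in innate-like cells was not tested beyond the counts given below. Dendritic markers summed to 391.1 to 1854 CPM in innate-like and 832.1 to 31180 CPM in conventional libraries. Neutrophil markers summed to 0 to 31.95 and 4.532 to 521.3 CPM. Stromal, erythroid and mast cell lists also had higher medians on the conventional side, while the B-cell list had a lower one (684.45 against 772.75 CPM). Following was scored on the myeloid and epithelial lists only, so genes that followed neither were not checked against these lists. In bulk libraries, fewer cells of a type and less RNA per cell cannot be told apart.

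**Figure D1:**
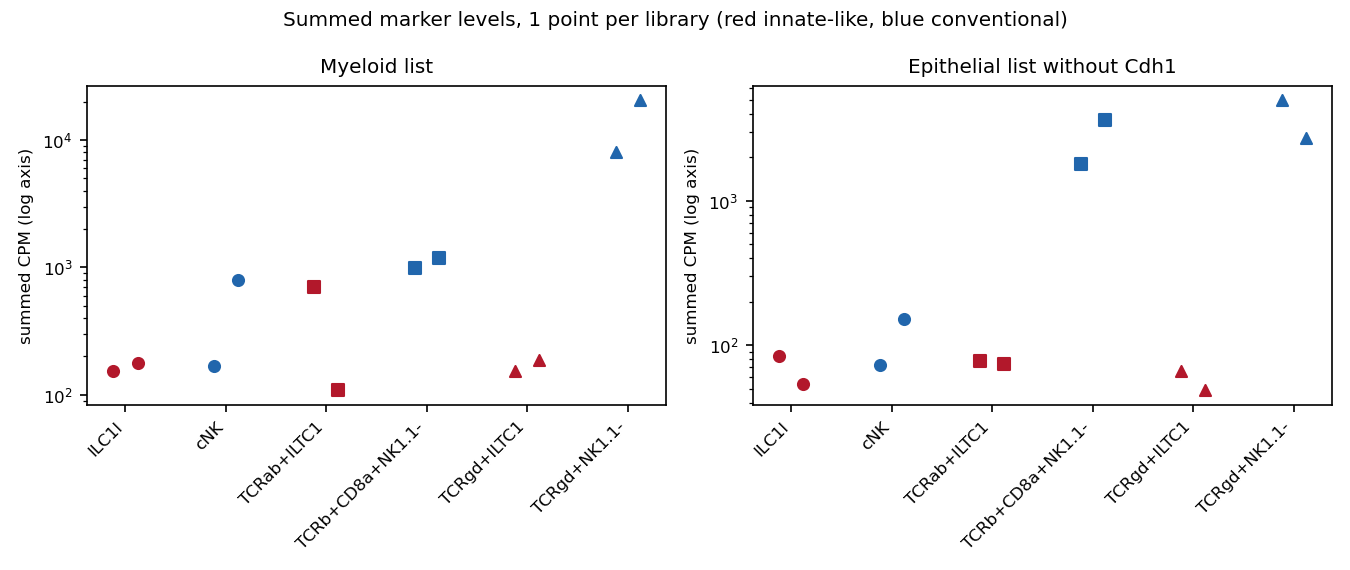
Summed CPM of 20 myeloid markers (left) and of 17 epithelial markers without Cdh1 (right) on log axes, with 1 point per library, red for innate-like and blue for conventional. The 2 TCRgd+NK1.1- libraries reach 8067 and 20410 CPM of myeloid markers, and the innate-like libraries hold at most 84.14 CPM of the epithelial markers.

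In the mean of the 3 differences, 987 genes (5.87%) were called, 319 higher (1.9% of tested genes) and 668 lower (3.97%) in innate-like cells. The higher genes included members of the granzyme, NK receptor and tissue residency lists described below. None of the 319 followed the myeloid or epithelial list. That count does not test for other cells, since both lists were mostly lower on the innate-like side and a higher gene could hardly follow them. By the same rule lower genes are more apt to follow them. Of the 668 lower genes, 323 (48.4%) followed one of these lists and 345 did not, and 291 had a population with 0 counts. The rule misses part of the markers themselves. Of the tested list members, 13 of 20 myeloid and 13 of 17 epithelial markers followed a list. A gene that followed neither is thus not shown to be free of RNA from such cells. Without the 771 following genes in the fit, 252 genes were higher and 304 lower. Leaving out TCRgd+NK1.1- replicate 1 moved the share of higher genes among the calls from 32.3% to 48.3%, and the number of calls ran from 448 without ILC1l replicate 2 to 1836 without TCRgd+NK1.1- replicate 1. Single lineages gave fewer calls: 171 (1.02%) for ILC1l against cNK, 88 (0.523%) for TCRab+ILTC1 against TCRb+CD8a+NK1.1- and 268 (1.59%) for TCRgd+ILTC1 against TCRgd+NK1.1- cells, of which 113 (0.671%) were higher and 155 (0.921%) lower. These counts moved widely when 1 library was left out, from 34 (without cNK replicate 1) to 352 (without TCRgd+NK1.1- replicate 2), from 11 to 840 (without TCRab+ILTC1 replicate 2 or 1) and from 7 (without TCRgd+ILTC1 replicate 2) to 804 (without TCRgd+NK1.1- replicate 1), in the same order. A log2 of at least 1 in the same direction in each lineage was found for 77 of the higher genes (0.458% of tested genes) and 388 of the lower genes (2.31%), of which 231 followed the myeloid or epithelial list, and the total ran from 239 without ILC1l replicate 2 to 603 in the fits without 1 library. All 6 innate-like libraries lay above all 6 conventional ones for 142 of the called higher genes, and below them for 187 of the called lower genes. Over all tested genes such a gap occurred for 233 (1.38%) and 271 (1.61%).

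In the single differences, 11 genes were called in the same direction in all 3, 7 higher (0.0416% of tested genes) and 4 lower (0.0238%). The 7 higher genes were Gzmc, Klra5, Itga1, Cd7, Xcl1, Car2 and Tnfrsf9, and the 4 lower ones Sgk1, Zfp36, Nr4a1 and Cldn4. The tight-junction gene Cldn4 followed the epithelial list and was at 0 counts in ILC1l cells. The set depended on single libraries: leaving out 1 library gave 2 genes (without ILC1l replicate 2, either cNK library, TCRb+CD8a+NK1.1- replicate 2 or TCRgd+ILTC1 replicate 2) to 19 genes (without either TCRgd+NK1.1- library), and each of the 12 fits moved the number by more than 1.5 times. Of the 11 genes, Gzmc was called in all 3 lineages in each of the 12 fits, Car2 and Klra5 in 6, Itga1, Xcl1, Tnfrsf9 and Cldn4 in 5, and Cd7, Sgk1, Zfp36 and Nr4a1 in 3. For 9 of the 11 genes RefSeq gave a start site on GRCm38.p6, and the 250 bases before it are shown for 3 higher genes and 1 lower gene, since these genes were called in the same direction in every lineage. Capitals mark matches, on either strand, to the T-box core TCACACC, the RUNX letters TGTGGT, the AP-1 letters TGANTCA or the CRE TGACGTCA, and none of the 4 patterns overlapped another in these windows.
Gzmc: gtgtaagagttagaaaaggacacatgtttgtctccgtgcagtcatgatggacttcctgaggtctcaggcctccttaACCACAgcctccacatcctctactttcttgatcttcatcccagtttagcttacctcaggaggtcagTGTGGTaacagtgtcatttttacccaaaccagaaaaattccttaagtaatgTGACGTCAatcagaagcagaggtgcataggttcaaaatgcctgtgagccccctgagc
Xcl1: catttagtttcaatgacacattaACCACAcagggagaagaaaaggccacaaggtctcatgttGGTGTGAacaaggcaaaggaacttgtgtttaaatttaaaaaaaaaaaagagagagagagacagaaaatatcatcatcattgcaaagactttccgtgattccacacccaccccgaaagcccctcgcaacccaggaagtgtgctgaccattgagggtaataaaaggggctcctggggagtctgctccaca
Itga1: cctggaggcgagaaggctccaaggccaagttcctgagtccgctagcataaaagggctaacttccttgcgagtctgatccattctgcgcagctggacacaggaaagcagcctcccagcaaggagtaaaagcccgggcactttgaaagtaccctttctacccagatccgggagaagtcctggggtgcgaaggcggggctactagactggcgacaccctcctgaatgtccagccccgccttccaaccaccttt
Nr4a1: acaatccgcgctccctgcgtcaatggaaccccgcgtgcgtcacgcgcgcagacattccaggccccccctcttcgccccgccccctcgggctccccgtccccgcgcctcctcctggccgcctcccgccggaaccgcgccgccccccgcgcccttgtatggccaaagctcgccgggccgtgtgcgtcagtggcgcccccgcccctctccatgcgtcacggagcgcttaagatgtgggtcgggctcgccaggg
The Gzmc window (chr14:56234658-56234907, minus strand) held the RUNX letters at -174 and -108 and the CRE at -57, counted to the first base of the match from the start site. The Xcl1 window (chr1:164935523-164935772, minus strand) held the T-box core at -188 and the RUNX letters at -227. The windows of Itga1 (chr13:115101965-115102214, minus strand) and Nr4a1 (chr15:101266596-101266845, plus strand) held none of the 4 patterns in these letters. Among 32851 windows of the same length, 3.33% held the T-box core, 14.0% the RUNX letters, 6.75% the AP-1 letters and 1.55% the CRE, and a match describes the letters of a window and is not a site of binding.

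Gzmc, which encodes the serine protease granzyme C, showed the largest rise of the 7. It was at 3448 and 3534 CPM in ILC1l against 9.49 and 9.24 in cNK cells, 469.7 and 256 in TCRab+ILTC1 against 7.11 and 22.01 in TCRb+CD8a+NK1.1- cells, and 1228 and 708 in TCRgd+ILTC1 against 15.4 and 16.2 in TCRgd+NK1.1- cells. The groups did not overlap in any lineage, and the lowest innate-like library, TCRab+ILTC1 replicate 2, lay far above the highest conventional one, TCRb+CD8a+NK1.1- replicate 2. The mean difference was 6.37 ± 0.35 (adjusted p = 0.000107), an 82.9-fold higher level, with 8.54 ± 0.66 for ILC1l, 4.64 ± 0.55 for TCRab+ILTC1 and 5.94 ± 0.59 for TCRgd+ILTC1 cells. The 3 differences were not shown to differ from each other (adjusted p = 0.0781).

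Itga1 was at 353 and 263 CPM in ILC1l, 364 and 399 in TCRab+ILTC1 and 448 and 368 in TCRgd+ILTC1 cells. It was at 3.89 and 7.82 CPM in cNK, 92.9 and 81.4 in TCRb+CD8a+NK1.1- and 67.2 and 99.0 in TCRgd+NK1.1- cells. The innate-like levels were alike in the 3 lineages, while the conventional T cells held intermediate levels and cNK cells almost none. The mean difference was 3.38 ± 0.22 (adjusted p = 0.000123), and the 3 differences of 5.72 ± 0.42, 2.13 ± 0.35 and 2.29 ± 0.36 differed from each other (adjusted p = 0.0244).

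Xcl1 encodes a chemokine that attracts cross-presenting dendritic cells. It was at 1157 and 1633 CPM in ILC1l against 245 and 263 in cNK, 852 and 411 in TCRab+ILTC1 against 93.6 and 97.6 in TCRb+CD8a+NK1.1-, and 693 and 482 in TCRgd+ILTC1 against 108 and 89.9 in TCRgd+NK1.1- cells. Its 3 differences were close in size, 2.46 ± 0.37, 2.72 ± 0.37 and 2.57 ± 0.37, and its mean difference was 2.58 ± 0.21 (adjusted p = 0.000546). Tnfrsf9 encodes the costimulatory receptor 4-1BB and was at 572 to 862 CPM in the 6 innate-like libraries and 143 to 298 CPM in the 6 conventional ones, a mean difference of 1.85 ± 0.12 (adjusted p = 0.000144). Its levels in cNK cells, 298 and 286 CPM, were above those of both conventional T-cell populations and below every innate-like library.

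Car2, the cytosolic carbonic anhydrase II, was at 2703 and 2939.9 CPM in ILC1l against 768 and 912 in cNK cells, 1046 and 1230.4 in TCRab+ILTC1 against 262 and 309.9 in TCRb+CD8a+NK1.1-, and 1529 and 1758 in TCRgd+ILTC1 against 256 and 315 in TCRgd+NK1.1- cells. The mean difference was 2.09 ± 0.13 (adjusted p = 0.000121), and the NK lineage stood at higher levels on both sides. Cd7, a surface glycoprotein of T and NK cells, was at 2704 to 4733 CPM in innate-like and 313 to 937 CPM in conventional libraries (mean difference 2.66 ± 0.24, adjusted p = 0.00067). Klra5, a member of the Ly49 receptor family, was at 187 to 556 CPM in innate-like and 15.9 to 80.0 CPM in conventional libraries (mean difference 3.86 ± 0.33, adjusted p = 0.000652). For both genes the 2 sets of 6 libraries did not overlap, and the highest conventional library was TCRgd+NK1.1- replicate 2 for Cd7 and TCRb+CD8a+NK1.1- replicate 2 for Klra5. Ly49 genes are near-identical copies, so the value of a single Klra gene is uncertain.

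Of the lower genes called in every lineage, Sgk1 encodes a kinase induced by serum and glucocorticoids. It was at 9.61 and 14.9 CPM in ILC1l against 145 and 135 in cNK, 31.3 and 20.8 in TCRab+ILTC1 against 207 and 295 in TCRb+CD8a+NK1.1-, and 35.6 and 18.9 in TCRgd+ILTC1 against 154 and 381 in TCRgd+NK1.1- cells. Its level was thus lower in each pair without overlap, with a mean difference of -3.36 ± 0.30 (adjusted p = 0.00067) and single differences of -3.52 ± 0.52, -3.27 ± 0.51 and -3.30 ± 0.52. Nr4a1, an orphan nuclear receptor induced early by antigen receptor signals, was at 74.4 to 130.0 CPM in innate-like libraries. It was at 803 and 925 CPM in cNK, 251 and 302 in TCRb+CD8a+NK1.1- and 351 and 348 in TCRgd+NK1.1- cells, and the mean difference was -2.07 ± 0.16 (adjusted p = 0.000381). The innate-like levels were alike in the 3 lineages and the cNK level was the highest. Zfp36, an RNA-binding protein that destabilises cytokine mRNAs, was at 66.4 to 113 CPM in innate-like and 244 to 693 CPM in conventional libraries (mean difference -2.16 ± 0.19, adjusted p = 0.000711). None of these 3 genes followed the myeloid or epithelial list, and in the fit without TCRgd+ILTC1 and TCRgd+NK1.1- cells the mean of the other 2 differences was -3.43 ± 0.26 (adjusted p = 0.00253) for Sgk1, -2.31 ± 0.19 (adjusted p = 0.00253) for Nr4a1 and -1.98 ± 0.26 (adjusted p = 0.0104) for Zfp36.

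**Figure D2:**
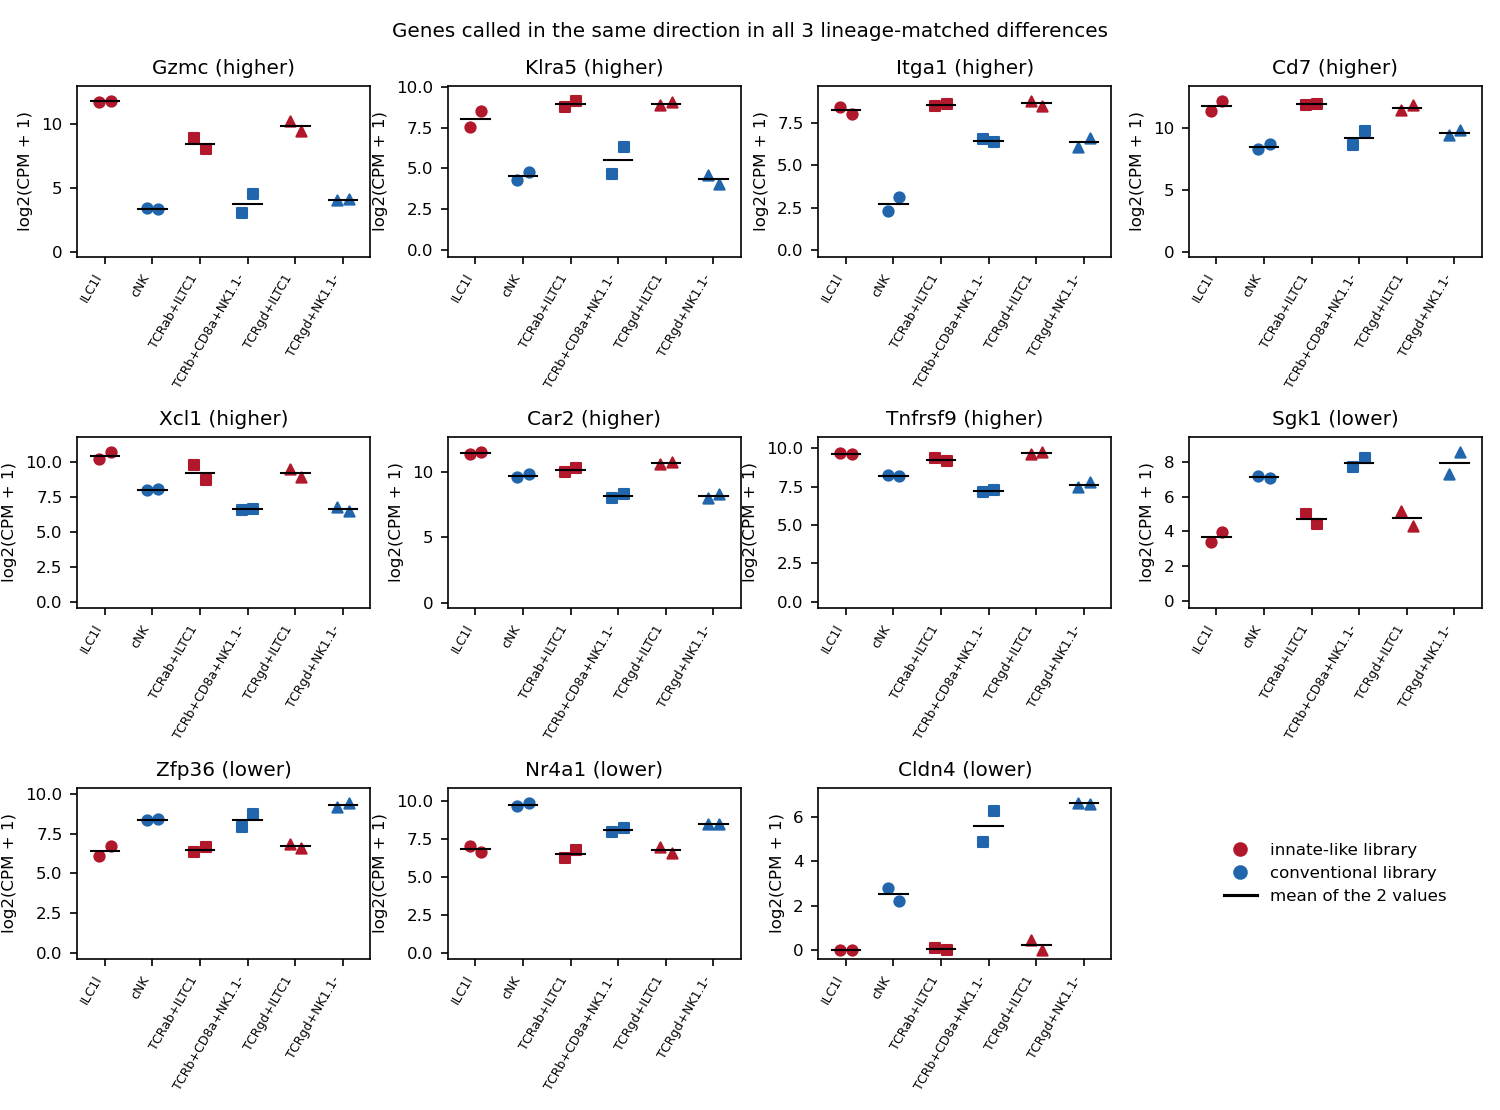
Levels as log2(CPM + 1) in each of the 12 libraries for the 11 genes called in the same direction in all 3 differences, with red for innate-like and blue for conventional populations and a line at the mean of each pair of values. In each panel all 6 red points lie on 1 side of all 6 blue points.

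The granzymes did not move as a family. Of 10 granzyme and perforin genes tested, Gzmb, Gzmc and Gzmf rose, Gzmk fell and 6 were not called. Gzmb, the main apoptosis-inducing granzyme, was at 7665 and 11456 CPM in ILC1l against 2771 and 3655 in cNK, 11199 and 13766 in TCRab+ILTC1 against 822 and 1957 in TCRb+CD8a+NK1.1-, and 9139.9 and 11839.6 in TCRgd+ILTC1 against 1856 and 2643 in TCRgd+NK1.1- cells (mean difference 2.32 ± 0.24, adjusted p = 0.00105). Gzmf, a granzyme of the same gene cluster as Gzmc, was at 59.6 ± 13.6 CPM (mean ± SD, n = 2) in ILC1l, 5.38 ± 4.12 in TCRab+ILTC1 and 28.1 ± 14.9 in TCRgd+ILTC1 cells. It had 0 counts in cNK and TCRgd+NK1.1- cells and 0 and 2.00 CPM in TCRb+CD8a+NK1.1- cells, so that its level was at least 479-fold higher in ILC1l and at least 222-fold higher in TCRgd+ILTC1 cells, taking 3 counts over the 2 conventional libraries. Gzmc and Gzmf are similar in sequence and could share reads. Gzmk, a tryptase-like granzyme of memory T cells, went the other way, with 17.8 and 17.4 CPM in TCRab+ILTC1 against 493 and 412 in TCRb+CD8a+NK1.1- and 24.2 and 26.6 in TCRgd+ILTC1 against 416 and 254 in TCRgd+NK1.1- cells. In the NK lineage Gzmk was low on both sides, at 2.36 and 8.90 CPM in ILC1l and 9.57 and 13.2 in cNK cells, and the mean difference was -3.14 ± 0.31 (adjusted p = 0.000789). Gzma, a tryptase, and perforin were not called: Gzma had a mean difference of 0.38 ± 0.23 (adjusted p = 0.412) and Prf1, the perforin gene, of -0.59 ± 0.23 (adjusted p = 0.182). Prf1 was at 591 and 518 CPM in ILC1l against 2886 and 3713 in cNK cells, a difference of -2.57 ± 0.42 (adjusted p = 0.0191), and at 73.7 to 192 CPM in the 8 T-cell libraries.

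Of 15 genes for granule proteins, granule release and death ligands, 4 rose, none was called lower by edgeR's test and 11 were not called, while 3 had an unadjusted p under 0.05 on the lower side and DESeq2 called 1. Over all 16828 tested genes, 3343 had an unadjusted p under 0.05 in either direction by edgeR's test. DESeq2 called 526 of the 16828 genes higher and 1618 lower. Counts of this kind, here and for the lists below, are to be read beside these shares. Tnfsf10, which encodes the death ligand TRAIL, was at 440.5 and 414 CPM in ILC1l against 55.5 and 44.3 in cNK, 405 and 332 in TCRab+ILTC1 against 140.3 and 148 in TCRb+CD8a+NK1.1-, and 476 and 492 in TCRgd+ILTC1 against 70.4 and 119 in TCRgd+NK1.1- cells. All 6 innate-like libraries lay above all 6 conventional ones, and the mean difference was 2.27 ± 0.17 (adjusted p = 0.000275). The cathepsin W gene Ctsw was at 2023 to 3069 CPM in innate-like and 524 to 1340.3 CPM in conventional libraries (mean difference 1.42 ± 0.14, adjusted p = 0.000789). Cst7, which encodes the protease inhibitor cystatin F, was at 229.6 to 467 and 97.5 to 210.3 CPM (mean difference 1.11 ± 0.19, adjusted p = 0.00909). Neither gene's 2 sets of libraries overlapped. Fasl, the Fas ligand, gave a mean difference of 0.09 ± 0.14 (adjusted p = 0.846), and Nkg7, a granule membrane protein, of 0.42 ± 0.19 (adjusted p = 0.259).

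NK receptor genes were the list with the most calls: 18 of 28 rose, none was called lower or had an unadjusted p under 0.05 on the lower side, and DESeq2 also called none lower. The median difference of the 28 was 2.09, beside -0.08 over all tested genes. The rise was not shared by the 3 lineages, with list medians of -0.49 for ILC1l against cNK, 2.75 for TCRab+ILTC1 and 4.12 for TCRgd+ILTC1 cells. Leaving out 1 library gave 14 (without cNK replicate 2) to 22 calls. Sorting by NK1.1 separates the T-cell populations by the product of Klrb1c, so its own difference follows from the gate. Klrb1a, a neighbour of that gene, was at 316 and 381 CPM in ILC1l against 181 and 181 in cNK, 204 and 154 in TCRab+ILTC1 against 6.36 and 17.6 in TCRb+CD8a+NK1.1-, and 206 and 206 in TCRgd+ILTC1 against 11.8 and 16.4 in TCRgd+NK1.1- cells (mean difference 2.90 ± 0.25, adjusted p = 0.00067). The Ly49 gene Klra7 was at 474 and 758 CPM in ILC1l against 823 and 884 in cNK, 1093 and 554 in TCRab+ILTC1 against 26.3 and 33.5 in TCRb+CD8a+NK1.1-, and 444 and 364 in TCRgd+ILTC1 against 10.1 and 11.9 in TCRgd+NK1.1- cells. Its level was thus high in cNK cells and low in the conventional T cells. Klra1, another Ly49 gene, gave differences of -0.51 ± 0.52 in the NK lineage, 4.94 ± 0.62 for TCRab+ILTC1 and 5.75 ± 0.65 for TCRgd+ILTC1 cells. Klrk1, which encodes the activating receptor NKG2D, gave -0.93 ± 0.37, 1.75 ± 0.38 and 3.56 ± 0.41. For Klra7, Klra1 and Klrk1 the 3 differences differed from each other (adjusted p = 0.00576, 0.0207 and 0.0207). Klrd1, the CD94 chain that pairs with NKG2 receptors, gave a mean difference of 1.98 ± 0.19 (adjusted p = 0.000789).

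The list also held receptors that rose in the NK lineage. Cd226, which encodes the activating receptor DNAM-1, was at 359 and 302 CPM in ILC1l against 101 and 73.4 in cNK, 475 and 345 in TCRab+ILTC1 against 143 and 180.4 in TCRb+CD8a+NK1.1-, and 554 and 485 in TCRgd+ILTC1 against 132 and 218 in TCRgd+NK1.1- cells. Cd160, a receptor for MHC class I and HVEM, was at 347 to 678 CPM in innate-like and 134 to 276 CPM in conventional libraries. Neither gene's 2 sets of libraries overlapped, with mean differences of 1.61 ± 0.18 (adjusted p = 0.00164) for Cd226 and 1.48 ± 0.16 (adjusted p = 0.00128) for Cd160. Both were called in the NK and γδ lineages and not in the αβ lineage, where the differences were 1.34 ± 0.32 and 1.37 ± 0.27. Of 11 genes for the ITAM adaptors and kinases below such receptors, 5 rose, 1 fell and 5 were not called. Fewer rose without either ILC1l library or without cNK replicate 2, among others. The adaptors Fcer1g and Tyrobp (DAP12) rose by 2.13 ± 0.24 (adjusted p = 0.00163) and 1.73 ± 0.21 (adjusted p = 0.00222). Tyrobp was at 469 and 516 CPM in TCRab+ILTC1 against 24.1 and 53.2 in TCRb+CD8a+NK1.1- cells but at 1224 and 1720.4 in ILC1l against 1091 and 1395 in cNK cells, and its 3 differences differed (adjusted p = 0.043). Myeloid cells also express both adaptors, and TCRgd+NK1.1- cells, with the most myeloid transcripts, held 179 and 224 CPM of Tyrobp. The gene that fell was Cd247, the CD3ζ chain (mean difference -0.83 ± 0.16, adjusted p = 0.015), at 80.9 and 101 CPM in ILC1l against 297 and 389.6 in cNK cells, and its call was lost without ILC1l replicate 1 (adjusted p = 0.0577).

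Residency genes rose more often than they fell: of 20 tested, 14 rose, 1 fell and 5 were not called, with a list median of 1.51. The NK lineage gave the largest list median, 2.34, against 0.57 for TCRab+ILTC1 and 1.03 for TCRgd+ILTC1 cells. In the mean of the 2 T-cell lineages alone 6 rose and none fell. Leaving out 1 library changed the number of risen genes, and fewer rose without ILC1l replicate 2 or without either cNK library, among others. Itgae, the αE integrin chain CD103 that binds E-cadherin, was at 1318 and 1721 CPM in ILC1l against 2.26 and 9.24 in cNK, 1718 and 3165 in TCRab+ILTC1 against 283 and 587 in TCRb+CD8a+NK1.1-, and 1449.5 and 2057 in TCRgd+ILTC1 against 452 and 863 in TCRgd+NK1.1- cells. All innate-like libraries lay above all conventional ones (mean difference 3.98 ± 0.39, adjusted p = 0.000789), and the difference of 8.05 ± 0.82 in the NK lineage and those of 2.49 ± 0.63 and 1.41 ± 0.61 in the T-cell lineages differed from each other (adjusted p = 0.0299). Zfp683, the transcription factor Hobit of resident lymphocytes, was at 16.7 to 26.9 CPM in innate-like and 0.0694 to 9.71 CPM in conventional libraries (mean difference 3.46 ± 0.68, adjusted p = 0.0182). Its call was lost in 4 of the 12 fits without 1 library, without TCRb+CD8a+NK1.1- replicate 1 (adjusted p = 0.0509), TCRb+CD8a+NK1.1- replicate 2 (adjusted p = 0.0614), cNK replicate 1 (adjusted p = 0.0626) or cNK replicate 2 (adjusted p = 0.0685). Chn2, a Rac GTPase-activating protein, gave 1.85 ± 0.45, 2.09 ± 0.45 and 2.18 ± 0.45 (mean difference 2.04 ± 0.26, adjusted p = 0.00269), and Qpct, glutaminyl cyclase, gave 3.59 ± 0.37, 1.25 ± 0.33 and 1.27 ± 0.33 (mean difference 2.04 ± 0.20, adjusted p = 0.000789). Inpp4b, a lipid phosphatase, rose by 1.68 ± 0.22 (adjusted p = 0.00303) but gave -0.09 ± 0.37 for TCRab+ILTC1 cells, and its 3 differences differed (adjusted p = 0.048). The chemokine receptor gene Ccr8 gave 2.04 ± 0.40 (adjusted p = 0.0175), a call lost without ILC1l replicate 2 (adjusted p = 0.051) or TCRgd+ILTC1 replicate 2 (adjusted p = 0.0564).

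The 1 residency gene that fell was Prdm1, the repressor Blimp-1, which also promotes the maturation of NK cells. It was at 12.6 and 14.1 CPM in ILC1l against 107 and 101 in cNK cells, 19.8 and 36.8 in TCRab+ILTC1 against 94.9 and 23.9 in TCRb+CD8a+NK1.1-, and 27.4 and 7.59 in TCRgd+ILTC1 against 41.6 and 66.9 in TCRgd+NK1.1- cells. The libraries overlapped in the αβ lineage and not in the other 2, and the gap was widest in the NK lineage. The mean difference was -1.89 ± 0.42 (adjusted p = 0.029), and the call was lost in 6 of the 12 fits without 1 library, without ILC1l replicate 1 (adjusted p = 0.0807), ILC1l replicate 2 (adjusted p = 0.0768), TCRb+CD8a+NK1.1- replicate 1 (adjusted p = 0.0621), TCRgd+ILTC1 replicate 2 (adjusted p = 0.0662), cNK replicate 1 (adjusted p = 0.0595) or cNK replicate 2 (adjusted p = 0.0573).

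Genes of recirculation, or egress, went the other way. Of 15 tested, 7 fell, none was called higher or had an unadjusted p under 0.05 on the higher side, DESeq2 also called none higher, and 8 were not called, with a list median of -1.42. Leaving out 1 library changed the number of falls, and fewer genes fell without either ILC1l library, among others. The mean of the 2 T-cell lineages alone gave 2 falls. S1pr1, the receptor that guides lymphocytes out of tissue along sphingosine 1-phosphate, was at 2.29 and 4.33 CPM in ILC1l against 70.3 and 64.7 in cNK, 27.5 and 24.5 in TCRab+ILTC1 against 91.7 and 101 in TCRb+CD8a+NK1.1-, and 23.0 and 27.5 in TCRgd+ILTC1 against 37.6 and 117 in TCRgd+NK1.1- cells. The 2 sets of 6 libraries did not overlap, and the mean difference was -2.62 ± 0.31 (adjusted p = 0.00202). Itga4, the α4 integrin chain used for entry from blood, was at 101 and 81.3 CPM in ILC1l against 1312 and 1232 in cNK and 125 and 169.8 in TCRab+ILTC1 against 672 and 342 in TCRb+CD8a+NK1.1- cells, but at 179 and 131 against 82.5 and 198 in the γδ lineage (mean difference -1.81 ± 0.26, adjusted p = 0.00439). Samhd1, a dNTP hydrolase, gave single differences of -1.20 ± 0.28, -1.78 ± 0.28 and -0.86 ± 0.28 (mean difference -1.28 ± 0.16, adjusted p = 0.00253). Ccr7, the lymph node homing receptor, was not called at -4.51 ± 1.20 (adjusted p = 0.0586), although it was at 0 to 2.01 CPM in innate-like and 12.1 to 40.1 CPM in conventional libraries.

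**Figure D3:**
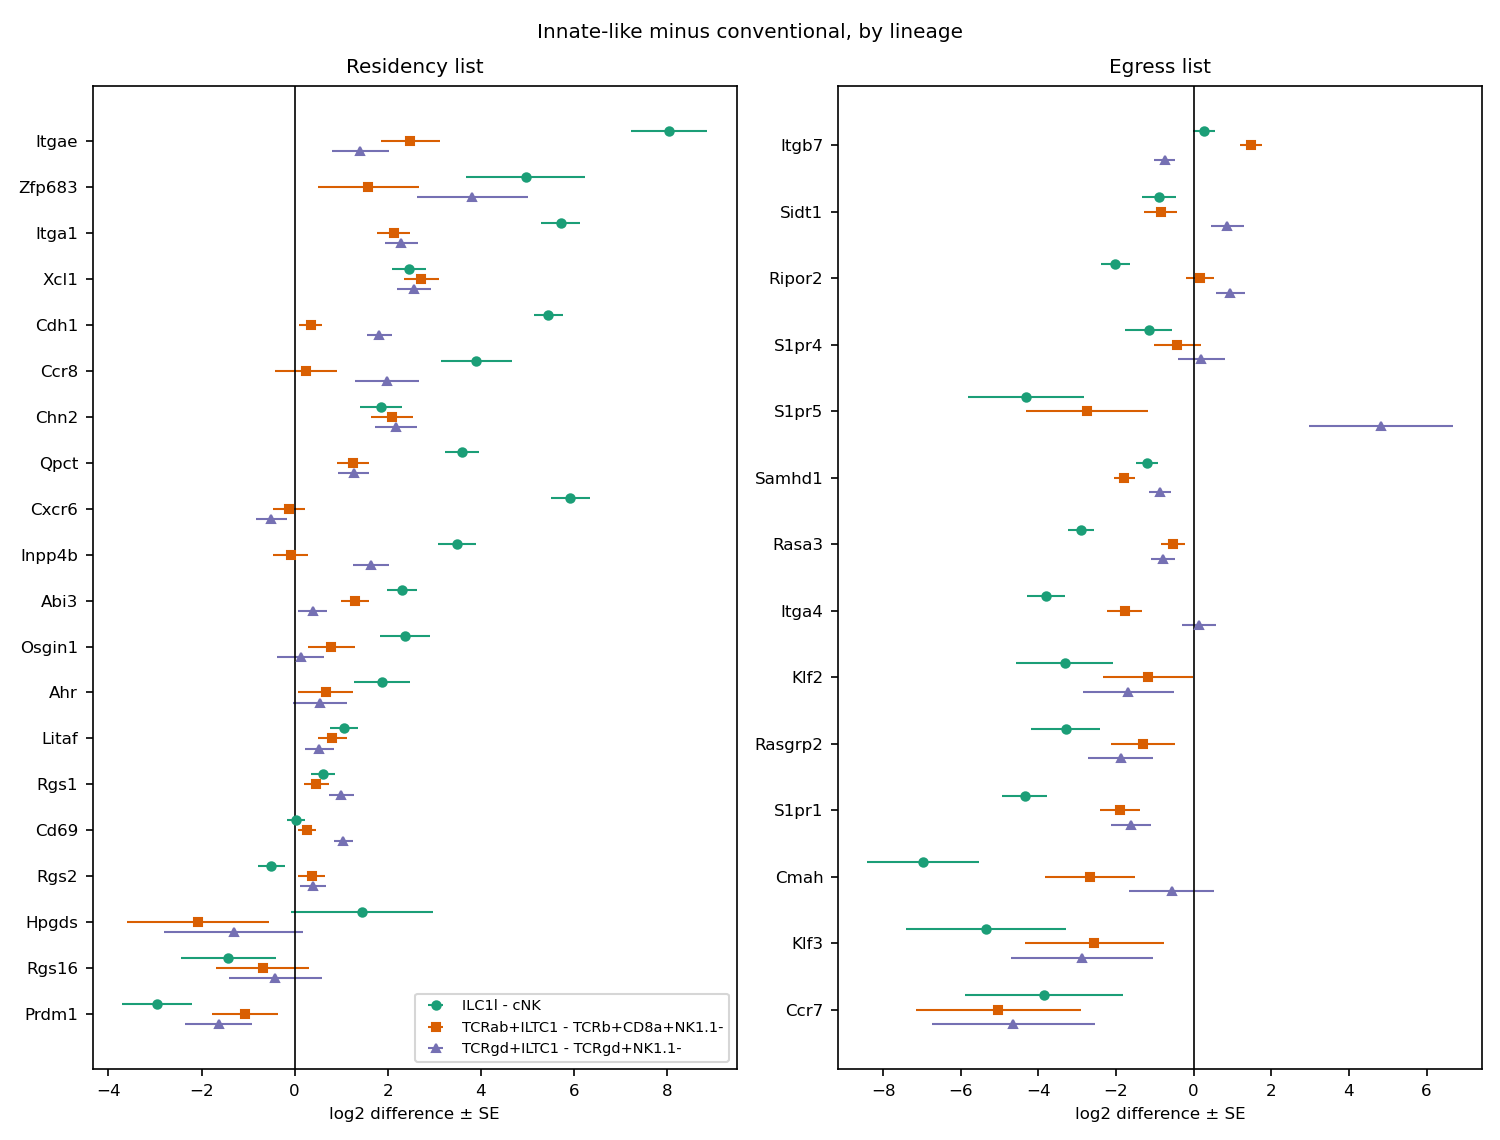
Log2 difference ± SE of innate-like minus conventional cells in the 3 lineages for the 20 tested residency genes (left) and 14 of the 15 tested egress genes (right), ordered by the mean difference. Most residency genes lie right of 0 and most egress genes left of 0, and for Itgae, Itga1, Cdh1 and Cxcr6 the circle of the NK lineage lies far from the other points.

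Falls without rises were also found in the lists of mature NK cells and of naive and memory T cells. Of 15 genes of mature NK cells, 5 fell, none was called higher, 1 had an unadjusted p under 0.05 on the higher side and DESeq2 called none higher. The number of falls ran from 1 without ILC1l replicate 2 to 7 without TCRgd+NK1.1- replicate 1, and none fell in the mean of the 2 T-cell lineages. Cx3cr1, the fractalkine receptor of circulating effector cells, was at 9.72 to 34.2 CPM in innate-like libraries, 183 and 369 in cNK, 51.5 and 82.3 in TCRb+CD8a+NK1.1- and 92.1 and 1041 in TCRgd+NK1.1- cells (mean difference -3.30 ± 0.56, adjusted p = 0.00973). Macrophages also express Cx3cr1, and the 1 library far above the rest, TCRgd+NK1.1- replicate 2, had the largest sum of myeloid markers. Zeb2, a transcription factor of terminal NK and effector T-cell maturation, was at 5.51 and 5.08 CPM in ILC1l against 400.1 and 288 in cNK cells (mean difference -3.81 ± 0.77, adjusted p = 0.0199), and its call was lost without ILC1l replicate 1 (adjusted p = 0.0674), ILC1l replicate 2 (adjusted p = 0.0763) or TCRgd+ILTC1 replicate 2 (adjusted p = 0.0747). Eomes, a T-box factor that defines conventional NK cells, was at 29.8 and 27.3 CPM in ILC1l against 146 and 188 in cNK cells, and its mean difference of -2.49 ± 0.99 was not called (adjusted p = 0.194). Its partner Tbx21 (T-bet) was not called either, at 0.44 ± 0.21 (adjusted p = 0.276). Of 15 naive and memory genes 5 fell and none was called higher, with 1 unadjusted p under 0.05 on the higher side and none called by DESeq2. Without following genes in the fit 2 fell. Without a filter on low counts, 1 gene of each of these 2 lists was called higher. Fewer than 5 fell in every fit without 1 library, such as those without either ILC1l library or without cNK replicate 1. Il7r, the interleukin-7 receptor, was at 29.9 and 7.56 CPM in TCRab+ILTC1 against 188 and 153 in TCRb+CD8a+NK1.1- and 23.0 and 56.3 in TCRgd+ILTC1 against 222 and 262 in TCRgd+NK1.1- cells, but at 27.3 and 19.6 in ILC1l and 19.8 and 27.6 in cNK cells (mean difference -1.93 ± 0.35, adjusted p = 0.0128).

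Cytokine and chemokine receptors split by gene. Of 21 cytokine receptor genes 4 rose, 5 fell and 12 were not called, and without ILC1l replicate 2 only 2 rose. Il2rb, the β chain shared by the receptors for interleukin-2 and interleukin-15, was at 2272 to 4745 CPM in innate-like libraries, 2634 and 3255 in cNK, 613 and 816 in TCRb+CD8a+NK1.1- and 639.7 and 803 in TCRgd+NK1.1- cells (mean difference 1.53 ± 0.19, adjusted p = 0.00248). The cNK levels of Il2rb lay within the innate-like range. Il18r1, a chain of the interleukin-18 receptor, was at 7.33 to 61.9 CPM in innate-like and 91.2 to 294 CPM in conventional libraries and gave single differences of similar size, -2.51 ± 0.69, -2.31 ± 0.69 and -2.08 ± 0.68 (mean difference -2.30 ± 0.40, adjusted p = 0.0103). Il10ra, the ligand-binding chain for interleukin-10, was at 38.2 to 73.7 and 87.2 to 288 CPM (mean difference -1.69 ± 0.26, adjusted p = 0.00635). Of 14 cytokine genes only Ifng, interferon-γ, was called, although 3 were called lower without TCRab+ILTC1 replicate 1. It was at 35.9 and 66.2 CPM in ILC1l against 261 and 263 in cNK cells, 63.2 and 77.3 in TCRab+ILTC1 against 122 and 122 in TCRb+CD8a+NK1.1- and 60.7 and 43.2 in TCRgd+ILTC1 against 75.6 and 49.7 in TCRgd+NK1.1- cells (mean difference -1.14 ± 0.21, adjusted p = 0.0122). The γδ libraries overlapped, and the separation was widest in the NK lineage.

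Among 18 chemokine and chemokine receptor genes 3 rose, which were Xcl1, Cxcr6 and Ccr8, and 6 fell, a number that ran from 2 without ILC1l replicate 2 to 7. Cxcr4, the receptor for CXCL12, was at 3.33 to 12.7 CPM in innate-like libraries. It was at 91.0 and 86.2 CPM in cNK, 22.6 and 25.1 in TCRb+CD8a+NK1.1- and 40.5 and 17.9 in TCRgd+NK1.1- cells, so the 2 sets did not overlap (mean difference -2.40 ± 0.31, adjusted p = 0.00269). Ccr2, the receptor for CCL2, was at 44.0 and 47.2 CPM in TCRab+ILTC1 against 194 and 196 in TCRb+CD8a+NK1.1- cells (mean difference -1.71 ± 0.36, adjusted p = 0.0248), and its call was lost without ILC1l replicate 2 (adjusted p = 0.0711).

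Inhibitory receptor genes rose more often than they fell, 7 against 1 (Havcr2, which encodes TIM-3) of 18 tested, and the list median was 0.08. That direction came with the NK lineage, where 6 were called higher and none lower, while in the mean of the 2 T-cell lineages 2 were higher and 3 lower. DESeq2 gave 7 against 5. No fall was called without ILC1l replicate 1 or without TCRgd+ILTC1 replicate 2, and 3 were called without either TCRab+ILTC1 library. Cd96, a receptor that competes with DNAM-1 for its ligand, was at 511 to 1044 CPM in innate-like and 126 to 441 CPM in conventional libraries (mean difference 1.47 ± 0.22, adjusted p = 0.00548). Cd200r1, an inhibitory receptor for CD200, was at 152 and 156 CPM in ILC1l against 6.61 and 6.22 in cNK, 262 and 404 in TCRab+ILTC1 against 112 and 61.0 in TCRb+CD8a+NK1.1-, and 251 and 283 in TCRgd+ILTC1 against 108 and 313 in TCRgd+NK1.1- cells (mean difference 2.29 ± 0.28, adjusted p = 0.00248). In the γδ lineage the libraries of Cd200r1 overlapped. Nt5e, the ecto-enzyme CD73 that makes adenosine, gave single differences of 2.70 ± 0.53, 0.86 ± 0.50 and 1.77 ± 0.51 (mean difference 1.78 ± 0.29, adjusted p = 0.00875). Of 21 genes of T-cell receptor signalling 6 rose, 4 fell and 11 were not called. Without ILC1l replicate 2 only 3 rose, and in the mean of the 2 T-cell lineages none rose and 3 fell. Without ILC1l replicate 1 only 2 fell. The rises included Cd3d, with 4.31 ± 0.62 in the NK lineage and 0.93 ± 0.54 and 0.68 ± 0.54 in the T-cell lineages (mean difference 1.97 ± 0.32, adjusted p = 0.00838), and Cd3e, whose levels in ILC1l and cNK cells are given above. Cd3e gave 6.40 ± 1.05 in the NK lineage and 0.96 ± 0.82 and 0.96 ± 0.82 in the T-cell lineages (mean difference 2.77 ± 0.51, adjusted p = 0.0134). Cd8a, with a mean difference of 2.24 ± 0.49 (adjusted p = 0.0286), lost its call in 4 of the 12 fits without 1 library, without ILC1l replicate 2 (adjusted p = 0.0747), TCRb+CD8a+NK1.1- replicate 1 (adjusted p = 0.0708), TCRb+CD8a+NK1.1- replicate 2 (adjusted p = 0.0704) or TCRgd+ILTC1 replicate 2 (adjusted p = 0.0721). Over the 2 T-cell lineages the mean for Cd8a was -0.14 ± 0.24 (adjusted p = 0.884). Cd28, the main costimulatory receptor of T cells, fell, at 46.9 and 9.72 CPM in TCRab+ILTC1 against 510.0 and 362 in TCRb+CD8a+NK1.1- cells and 59.5 and 26.5 in TCRgd+ILTC1 against 47.2 and 58.1 in TCRgd+NK1.1- cells (mean difference -2.09 ± 0.36, adjusted p = 0.0106). Icos, its relative, gave 0.03 ± 0.43, -1.69 ± 0.44 and -2.47 ± 0.45 (mean difference -1.38 ± 0.25, adjusted p = 0.0131).

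Immediate early genes, which cells transcribe soon after a stimulus without new protein synthesis, were lower in innate-like cells: 10 of 21 fell, none was called higher or had an unadjusted p under 0.05 on the higher side, DESeq2 called none higher, and 20 of 21 had a mean difference below 0. The list median was -1.11. The number of falls ran from 6 without ILC1l replicate 2 to 11, and was 3 in the mean of the 2 T-cell lineages. Fos, a chain of the AP-1 factor, was at 52.1 and 75.0 CPM in ILC1l against 179 and 215 in cNK, 72.9 and 68.5 in TCRab+ILTC1 against 255 and 582 in TCRb+CD8a+NK1.1-, and 100.2 and 104 in TCRgd+ILTC1 against 472 and 757 in TCRgd+NK1.1- cells (mean difference -2.26 ± 0.23, adjusted p = 0.00116). Fos followed the epithelial list, while Fosb and Nr4a2 did not. Fosb gave -2.06 ± 0.77, -2.09 ± 0.76 and -2.84 ± 0.79 (mean difference -2.33 ± 0.45, adjusted p = 0.016), and Nr4a2, a relative of Nr4a1, gave -2.65 ± 0.32, -1.95 ± 0.31 and -0.09 ± 0.30 (mean difference -1.56 ± 0.18, adjusted p = 0.00163). The heat shock gene Hspa1a was at 58.6 to 231 CPM in innate-like and 168 to 661 CPM in conventional libraries, which overlapped across lineages but not within one (mean difference -1.57 ± 0.32, adjusted p = 0.0199), and its call was lost without ILC1l replicate 2 (adjusted p = 0.0541) or TCRgd+ILTC1 replicate 2 (adjusted p = 0.0605). Atf3, a stress-induced factor, gave -3.72 ± 0.81 (adjusted p = 0.0266), a call lost in 4 of the 12 fits without 1 library, without ILC1l replicate 1 (adjusted p = 0.0874), ILC1l replicate 2 (adjusted p = 0.0766), TCRab+ILTC1 replicate 2 (adjusted p = 0.0649) or TCRb+CD8a+NK1.1- replicate 2 (adjusted p = 0.0553).

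Outside the lists, falls that do not follow the myeloid or epithelial list were looked for among genes with at least 20 CPM in each conventional population, a rule chosen after the values were seen. Of 186 called lower genes at that level, 163 followed neither list. The rule also asks for that level in cNK cells, where the epithelial markers without Cdh1 summed to 72.75 and 151.8 CPM. Genes of that list are thus less apt to pass it, and the count does not test for other cells. The same share over all tested genes at that level was not counted. Plk2, a polo-like kinase induced by stress, was at 2.08 to 16.2 CPM in innate-like and 60.1 to 267 CPM in conventional libraries (mean difference -4.28 ± 0.45, adjusted p = 0.00121). Trps1, a GATA-type repressor, was at 7.79 to 34.6 and 43.0 to 437 CPM (-3.33 ± 0.32, adjusted p = 0.000789). Bhlhe41, a transcriptional repressor of the clock family, was at 0 to 7.09 and 44.4 to 131 CPM (-4.90 ± 0.71, adjusted p = 0.00474). For all 3 genes every innate-like library lay below every conventional one. Nfkbiz, an atypical IκB protein, gave -3.57 ± 1.14, -5.02 ± 1.22 and -2.15 ± 1.07 (mean difference -3.58 ± 0.66, adjusted p = 0.0134), and its call was lost without ILC1l replicate 1 (adjusted p = 0.0504) or TCRgd+ILTC1 replicate 2 (adjusted p = 0.0565). Tgif1, a co-repressor of TGF-β signalling, was at 22.5 to 47.0 and 85.0 to 175 CPM (-2.05 ± 0.22, adjusted p = 0.00127), and Pmaip1, which encodes the pro-apoptotic protein Noxa, at 5.12 to 33.0 and 58.6 to 123 CPM (-2.15 ± 0.32, adjusted p = 0.00548). Unlike the genes before it, Pmaip1 is a member of a list, that of the Bcl2 family. Of its 13 tested genes 1 rose, 1 fell and 11 were not called, with a list median of -0.05. The gene that rose was Bcl2l11, which encodes the pro-apoptotic protein Bim, at 246 to 518 CPM in innate-like and 71.3 to 199 CPM in conventional libraries (1.36 ± 0.19, adjusted p = 0.00439). Its difference in the NK lineage, 0.41 ± 0.33, was not called (adjusted p = 0.706).

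Among called genes with a log2 of at least 1 and no overlap in each lineage, at least 20 CPM in a population and no following of the myeloid or epithelial list, 56 were higher and 87 lower. Over all tested genes, 2.79% had no overlap in any of the 3 pairs with the innate-like side higher and 2.95% with it lower. Several of the 15 largest rises are better known from other tissues. Cdh17, a cadherin best known from the intestine, was at 37.5 and 42.1 CPM in ILC1l against 0.778 and 4.09 in cNK, 22.5 and 16.1 in TCRab+ILTC1 against 0.889 and 0 in TCRb+CD8a+NK1.1-, and 33.4 and 86.7 in TCRgd+ILTC1 against 0.322 and 0 in TCRgd+NK1.1- cells (mean difference 6.02 ± 0.86, adjusted p = 0.00455). S1pr3, another receptor for sphingosine 1-phosphate, was higher where S1pr1 was lower. It was at 58.0 to 179 CPM in innate-like libraries, 0.778 and 0.978 in cNK and 0.957 and 0 in TCRb+CD8a+NK1.1- cells, but at 69.3 and 32.3 in TCRgd+NK1.1- cells (mean difference 5.15 ± 0.54, adjusted p = 0.00126). Matk, a kinase that inhibits Src-family kinases, was at 77.0 to 191 and 0.934 to 57.1 CPM (3.12 ± 0.39, adjusted p = 0.0025). Tnni1, a troponin of slow muscle, was at 68.4 to 186 and 2.39 to 35.9 CPM (3.48 ± 0.60, adjusted p = 0.0103), and Gcsam, a signalling protein of germinal centre B cells, at 56.7 to 195 and 0 to 55.1 CPM (5.71 ± 1.00, adjusted p = 0.0111). Matk, Tnni1, Gcsam and Cdh17 separated all 6 innate-like from all 6 conventional libraries. The largest falls included genes at or near 0 in the innate-like libraries, whose fitted sizes depend on the prior count. Irak3, an inhibitor of Toll-like receptor signalling in macrophages, had 0 counts in all innate-like libraries and 0.7 to 39.8 CPM in conventional ones, and Slc37a2, a sugar-phosphate transporter of macrophages, was at 0 to 3.12 and 8.49 to 159.7 CPM. Aldh2, a mitochondrial aldehyde dehydrogenase, was at 0 to 4.73 and 10.1 to 93.0 CPM (mean difference -5.84 ± 0.88, adjusted p = 0.00558). The highest levels of Irak3 and Slc37a2 were in TCRgd+NK1.1- replicate 2, which had the largest myeloid sum.

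Other lists had few calls or calls that rested on 1 lineage. Of 15 type 3 genes 5 fell and none was called higher by edgeR or DESeq2 or had an unadjusted p under 0.05 on the higher side, but none fell in the mean without the γδ lineage or without cNK replicate 2. Cd163l1, a scavenger receptor of interleukin-17-producing γδ T cells, was at 579.7 and 779 CPM in TCRgd+NK1.1- cells and at most 5.28 CPM in the other 10 libraries. The call of Cd163l1 was lost without cNK replicate 2 (adjusted p = 1.0). Of 20 cell cycle genes none was called in either direction by edgeR or by DESeq2, and 1 had an unadjusted p under 0.05, on the higher side. Mki67, the proliferation marker, gave 0.13 ± 0.28 (adjusted p = 0.928). Of 20 interferon-response genes 1 rose and none was called lower by edgeR's test, although 8 had an unadjusted p under 0.05 on the lower side and DESeq2 called 6, and without TCRab+ILTC1 replicate 1 edgeR called 6. Of 9 B-cell genes tested Ighm, the heavy chain of IgM, rose and Igkc, the κ light chain, fell. Ighm was at 699 to 1095 CPM in innate-like and 135 to 311 CPM in conventional libraries (1.79 ± 0.20, adjusted p = 0.00163). Igkc was at 1785 and 917 CPM in cNK and 834 and 74.7 in TCRgd+NK1.1- cells and at 0 to 16.9 CPM in innate-like libraries, and Jchain, a plasma cell gene, was at 617 and 435 CPM in cNK and 501 and 20.9 in TCRgd+NK1.1- cells and 0 to 6.32 in innate-like libraries. The part of plasma cells in the cNK libraries was not tested.

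**Figure D4:**
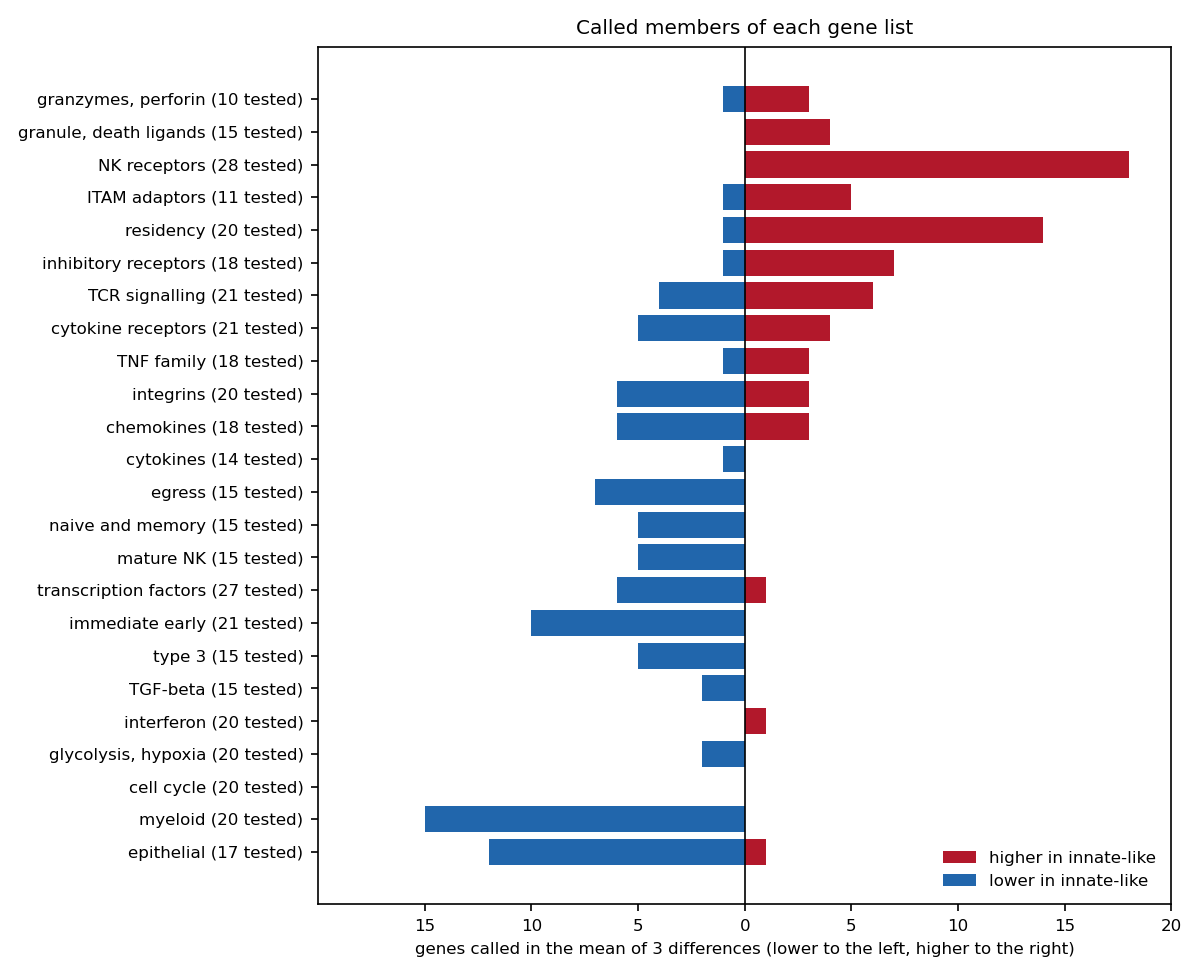
Number of genes of each list called lower (blue, left) or higher (red, right) in innate-like cells in the mean of the 3 differences, with the number tested in brackets. NK receptors (18 of 28) and residency genes (14 of 20) have the longest red bars, and the myeloid (15 of 20), epithelial (12 of 17) and immediate early (10 of 21) lists the longest blue bars.

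The 3 lineages differed in part. The joint test of the difference among the 3 differences called 89 genes (0.529%), of which 50 were also called in the mean. Their number ran from 16 without cNK replicate 1 to 563 without TCRab+ILTC1 replicate 1. The NK lineage was the farthest from the other two for 55 of the 89, the γδ lineage for 29 and the αβ lineage for 5. Calls were shared unevenly between the single differences. TCRab+ILTC1 and TCRgd+ILTC1 cells shared 45 genes in the same direction (51.1% of the αβ calls and 16.8% of the γδ calls) and 3 in opposite directions. ILC1l cells shared 19 with TCRab+ILTC1 cells (11.1% of the NK lineage calls and 21.6% of the αβ calls, with 2 opposite) and 20 with TCRgd+ILTC1 cells (11.7% and 7.46%, with 7 opposite). The single differences use different libraries, although all share 1 estimate of the spread.

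A first group of differing genes rose most in the NK lineage. Cxcr6, a chemokine receptor of resident lymphocytes, was at 968 and 1405 CPM in ILC1l against 12.4 and 26.8 in cNK cells. It was at 2070.4 and 2298 CPM in TCRab+ILTC1 against 2309 and 2433 in TCRb+CD8a+NK1.1- and 1846 and 2309 in TCRgd+ILTC1 against 2638 and 3237 in TCRgd+NK1.1- cells, so all T-cell libraries were high and only cNK cells were low. Its differences were 5.92 ± 0.42, -0.12 ± 0.34 and -0.50 ± 0.34 (adjusted p of the difference among them = 0.00396). Cdh1, E-cadherin, was at 637 and 695 CPM in ILC1l against 17.1 and 13.3 in cNK cells, and gave 5.45 ± 0.31, 0.34 ± 0.26 and 1.82 ± 0.26 (adjusted p = 0.00396), of which the NK and γδ differences were called. Adgrg1, an adhesion receptor of cytotoxic cells, gave 5.78 ± 0.46, -0.63 ± 0.35 and -0.84 ± 0.36 (adjusted p = 0.00443), and Lgals3, the lectin galectin-3, gave 4.44 ± 0.34, 1.15 ± 0.30 and 0.56 ± 0.29 (adjusted p = 0.00907). Lag3, an inhibitory receptor, was at 110.1 and 111 CPM in ILC1l and 3.81 and 6.22 in cNK cells and gave 4.46 ± 0.54, 0.16 ± 0.46 and -0.22 ± 0.46 (adjusted p = 0.0322). For Cxcr6, Adgrg1 and Lag3 only the NK lineage was called, and the mean over the 2 T-cell lineages was -0.38 ± 0.16 (adjusted p = 0.278), -0.80 ± 0.23 (adjusted p = 0.114) and -0.10 ± 0.36 (adjusted p = 0.963), in that order.

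Pdcd1, which encodes PD-1, was higher in ILC1l and lower in TCRab+ILTC1 cells than in their partners, both called. It was at 13.9 and 55.4 CPM in ILC1l against 1.09 and 0.978 in cNK cells, at 90.0 and 77.4 in TCRab+ILTC1 against 777 and 609.9 in TCRb+CD8a+NK1.1-, and at 93.2 and 93.5 in TCRgd+ILTC1 against 458 and 498 in TCRgd+NK1.1- cells. No pair of populations overlapped, and the differences were 5.05 ± 0.61, -3.05 ± 0.52 and -2.36 ± 0.51 (adjusted p of the difference among them = 0.00724), of which that of the γδ lineage was not called (adjusted p = 0.0538). The mean difference was close to 0, -0.12 ± 0.31 (adjusted p = 0.958). Of the ILC1l libraries, replicate 2 held more Pdcd1 and also more of the T-cell transcripts given above, such as Cd3e at 88.4 and 477 CPM. The part of these transcripts in the ILC1l level of Pdcd1 was not tested.

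Other genes had lower levels in ILC1l than in cNK cells, with differences that differed from those of the T-cell lineages. Il18rap, the second chain of the interleukin-18 receptor, was at 1164 and 1223 CPM in cNK and 32.1 to 127 CPM in the other 10 libraries. It thus had its highest levels in cNK cells without overlap, with differences of -3.52 ± 0.32, -0.29 ± 0.29 and 1.16 ± 0.30 (adjusted p = 0.00715). The mean difference of Il18rap, -0.88 ± 0.17 (adjusted p = 0.0163), was lost as a call without TCRgd+ILTC1 replicate 2 (adjusted p = 0.067). Serpinb9, an inhibitor that protects cytotoxic cells from granzyme B, was at 286 and 276 CPM in ILC1l against 1382 and 1301 in cNK, 252 and 303 in TCRab+ILTC1 against 109 and 124 in TCRb+CD8a+NK1.1-, and 369 and 419 in TCRgd+ILTC1 against 56.0 and 121 in TCRgd+NK1.1- cells (adjusted p = 0.00898), and it was called lower in the NK and higher in the γδ lineage. Serpinb6b, a related serpin, gave -1.36 ± 0.28, 1.47 ± 0.29 and 2.80 ± 0.30 (adjusted p = 0.0082), and of these the γδ difference was called.

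In a further group the γδ lineage stood apart. Atp8b4, a lipid flippase, was at 37.7 and 39.7 CPM in TCRgd+NK1.1- cells and 119 to 366 CPM in the other 10 libraries, and gave -0.63 ± 0.26, -1.12 ± 0.26 and 3.00 ± 0.28 (adjusted p = 0.00576). Ccnt2, a cyclin of the transcription elongation factor P-TEFb, gave -1.48 ± 0.22, -1.76 ± 0.22 and 1.32 ± 0.22 (adjusted p = 0.00724), with values below 0 in 2 lineages and above 0 in the γδ lineage. Its mean difference of -0.64 ± 0.13 (adjusted p = 0.0179) lost its call in 8 of the 12 fits without 1 library, without ILC1l replicate 1 (adjusted p = 0.071), ILC1l replicate 2 (adjusted p = 0.0768), TCRab+ILTC1 replicate 2 (adjusted p = 0.0535), TCRb+CD8a+NK1.1- replicate 2 (adjusted p = 0.0716), TCRgd+ILTC1 replicate 1 (adjusted p = 0.0673), TCRgd+ILTC1 replicate 2 (adjusted p = 0.081), cNK replicate 1 (adjusted p = 0.0757) or cNK replicate 2 (adjusted p = 0.0744). The nuclear RNA Malat1 was at 973 and 1061 CPM in ILC1l against 6003 and 5292 in cNK, 1245 and 1096 in TCRab+ILTC1 against 6343 and 4868 in TCRb+CD8a+NK1.1-, and 3141 and 4158 in TCRgd+ILTC1 against 1105 and 2146 in TCRgd+NK1.1- cells (adjusted p = 0.0121). It was thus lower in ILC1l and TCRab+ILTC1 cells, both called, and at 1.17 ± 0.31 for TCRgd+ILTC1 cells, not called (adjusted p = 0.0922).

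**Figure D5:**
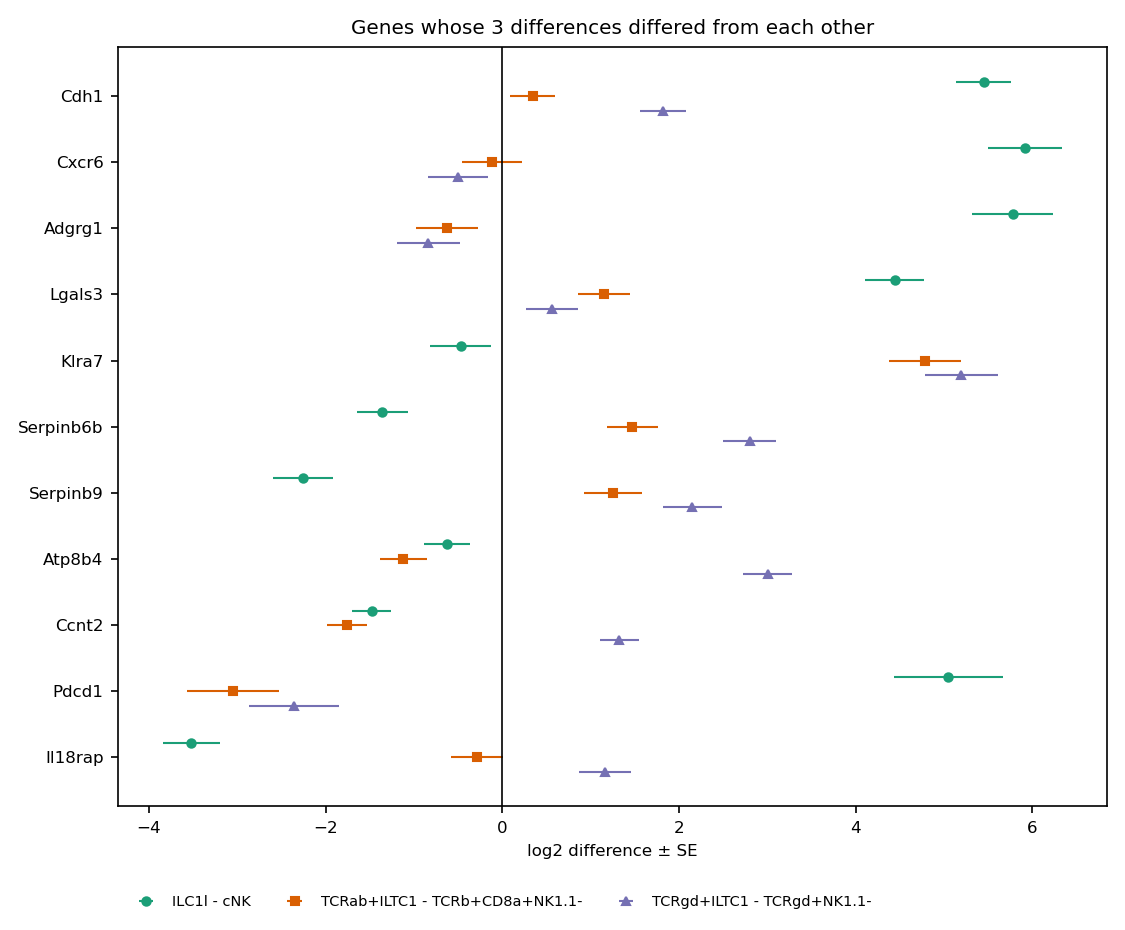
Log2 difference ± SE of innate-like minus conventional cells in the 3 lineages for 11 of the 89 genes whose differences differed from each other. The circles of the NK lineage lie right of the other points for Cdh1, Cxcr6, Adgrg1, Lgals3 and Pdcd1 and left of them for Klra7, Serpinb6b, Serpinb9 and Il18rap.

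The called genes were then looked up in libraries that the 3 differences do not use, where TCRb+CD8a+NK1.1+ cells can be set against TCRb+CD8a+PD1-NK1.1- cells. That comparison called 280 of 15727 genes (1.78%), and 46 without TCRb+CD8a+NK1.1+ replicate 1 to 467 without TCRb+CD8a-NK1.1+ replicate 1, a library of the same fit. Of the 319 higher genes, 293 (91.8%) had the same sign there, 89 were called and none was called in the opposite direction, beside 61.0% of the same sign among all 7278 genes with a mean difference above 0. Of 663 lower genes tested there, 414 (62.4%) had the same sign, 39 were called in the same direction and 2 in the opposite one, beside 58.9% among all 7916 genes below 0. Among the 385 lower genes with a log2 of at least 1 in each lineage the share was 58.2%, and among the 154 of these that followed neither list it was 71.4%. NK1.1 is the gate in that comparison as in the T-cell lineages above, and its part in these shares was not tested. The reference there is also sorted as PD1-, which the label of TCRb+CD8a+NK1.1- cells does not state. Pdcd1 was at 92.3 and 105 CPM in that reference, against 777 and 609.9 in TCRb+CD8a+NK1.1- cells. The part of the PD-1 gate in these shares was not tested either. Of the genes called in all 3 lineages, Gzmc gave 4.80 ± 0.62 (adjusted p = 0.00559), Cd7 2.76 ± 0.33 (adjusted p = 0.00373), Tnfrsf9 3.05 ± 0.36 (adjusted p = 0.00373), Car2 2.91 ± 0.32 (adjusted p = 0.0029) and Xcl1 2.42 ± 0.43 (adjusted p = 0.0247). Klra5 with 3.57 ± 0.84 (adjusted p = 0.0792) and Itga1 with 1.86 ± 0.46 (adjusted p = 0.0921) had the same sign and were not called. Of the lower genes, Sgk1 gave -1.57 ± 0.34 (adjusted p = 0.0531), Nr4a1 -1.80 ± 0.45 (adjusted p = 0.0974) and Zfp36 -0.37 ± 0.29 (adjusted p = 0.817), none of which was called. Il7r and S1pr1 were called there, with -7.67 ± 0.62 (adjusted p = 0.00116) and -6.06 ± 0.55 (adjusted p = 0.00139). Il7r was at 577 and 463 CPM in TCRb+CD8a+PD1-NK1.1- and 188 and 153 in TCRb+CD8a+NK1.1- cells. S1pr1 was at 397 and 278 against 91.7 and 101 CPM. TCRb+CD8a+NK1.1+ cells also held less than TCRab+ILTC1 cells, with Il7r at 3.84 and 1.25 CPM and S1pr1 at 7.25 and 2.84. The sizes of these falls are thus not comparable with those in the 3 lineages. Of the 41 lower genes named here and called in the mean, 34 had the same sign in that comparison and 7 the opposite one, with none of the 7 called. Among them were the immediate early genes Fos with 0.28 ± 0.32, Fosb with 0.07 ± 0.42 and Nr4a2 with 1.02 ± 0.65, as well as Plk2 with 1.23 ± 0.71, Bhlhe41 with 0.46 ± 0.86, Aldh2 with 1.78 ± 1.62 and Prdm1 with 0.22 ± 0.53. Of the 49 higher ones, Ccr8 had the opposite sign, at -0.72 ± 0.55, and was not called (adjusted p = 0.81).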

How the data were processed

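RNA-seq was measured in lymphocytes sorted by flow cytometry from mouse mammary tumours digested with enzymes, and cDNA was amplified with a SMARTer method, per the labels' protocols. The authors deposited 1 table of raw counts per gene for 22 libraries. The submitters' processing notes name BWA 0.7.5a, Picard and HTSeq and the builds mm9 and NCBIM37; their roles, strand setting and duplicate treatment were not given in the sources used here. Amplification without molecular identifiers means that counts are not independent molecules, and without a strand setting overlapping and antisense genes cannot be told apart.

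Of 37620 table entries, 32897 were given a symbol through the reference gene table, and these held 99.02% of the counts. Listed genes without a match, Trdc among them, were not analysed here, and some listed genes are counted but not reported by name. Counts of 12 libraries were filtered with filterByExpr, TMM-scaled and fitted with 1 term per population in edgeR 4.0.16 (R 4.3.3, limma 3.58.1), with 6 residual degrees of freedom and a common biological coefficient of variation of 0.76. The contrasts were the 3 differences, their mean and a joint test of the difference among them. A standard error is the size of the log2 difference divided by the square root of F. A check on simulated data for the mean difference covered 15885 genes, with 50 altered genes per size. The calls found 10% at a log2 of 1, 54% at 2, 92% at 4 and 92% at 6, and 6 calls (4.62%) were false. Altered genes were drawn above a floor of fitted counts and changed alike in all 3 lineages. Counts were drawn with the fitted spread, and no difference in RNA of other cells was added. The shares thus do not cover genes at low counts or genes that 1 lineage carries into the mean. Alternatives were other scalings, no filter, all 22 libraries, a replicate block, no following genes, DESeq2 1.42.0, leaving out each library and leaving out each lineage.

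Genes were named by rule: the sort markers, the 15 largest differences each way that kept sign and size in each lineage, those called in all 3 lineages, up to 4 called members of each list each way with members stated as not called, and the genes that differed most among lineages. Genes outside this rule, such as Plk2, Trps1, Bhlhe41, Nfkbiz, Tgif1 and Malat1, were chosen after their values were seen, as were the rule on 20 CPM in each conventional population and the epithelial sum without Cdh1. The members, gene lists and tests were chosen with earlier results of these data known. Promoter windows are from RefSeq, build GRCm38.p6, which is not the build of the counts, and were matched by symbol.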

Additional observations from a re-analysis of the deposited data

Results flagged for a closer look

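The effect of being innate-like differed among the 3 lineages for 89 genes by edgeR's joint test of the difference among the 3 differences. Those named in the report carried the following Benjamini-Hochberg adjusted p-values from edgeR. Among residency genes the adjusted p was 0.0244 for Itga1, 0.0299 for Itgae, 0.00396 for Cdh1, 0.00396 for Cxcr6 and 0.048 for Inpp4b. Among NK receptors and their adaptors it was 0.00576 for Klra7, 0.0207 for Klra1, 0.0207 for Klrk1 and 0.043 for Tyrobp. Among granzyme inhibitors it was 0.0082 for Serpinb6b and 0.00898 for Serpinb9. Among inhibitory and cytokine receptors it was 0.00724 for Pdcd1, 0.0322 for Lag3 and 0.00715 for Il18rap. Among the other genes it was 0.00443 for Adgrg1, 0.00576 for Atp8b4, 0.00724 for Ccnt2, 0.0121 for Malat1 and 0.00907 for Lgals3. Each population had 2 libraries, too few for a check of single outlying libraries within a population.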

How the results depend on the processing

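Called genes in the mean numbered 987 in the fit reported above, 1013 with DESeq2's size factors and 1011 with upper quartile scaling. Genes called in all 3 lineages numbered 11, 9 and 16 in these fits. Without a filter on low counts, calls were 2233 in the mean, 787 for ILC1l against cNK, 1244 for the αβ lineage, 1786 for the γδ lineage, 1462 among the differences, 928 with a log2 of at least 1 in each lineage, 161 in all 3 lineages and 747 in the TCRb+CD8a+NK1.1+ comparison. With all 22 libraries they were 1517, 327, 282, 626 and 332 for the first 5 of these and 21 in all 3 lineages. DESeq2 gave 2144, 753, 1113, 1578, 926 and 791 for the first 6 and 78 in all 3 lineages. Without following genes the mean gave 556, the γδ lineage 133 and the genes with a log2 of at least 1 in each lineage 203. In that fit 7 genes were called in all 3 lineages, all of them among the 11. Cd7, Klra5 and Zfp36 were no longer called in all 3, and Cldn4 was left out as a following gene. The share of higher genes among calls, 32.3%, was 24.5% with DESeq2 and 45.3% without following genes. The mean of 2 lineages gave 574 calls without ILC1l and cNK, 524 without the αβ pair and 597 without the γδ pair.

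Leaving out 1 library, where the lone library of a population is assumed to vary like the others, gave 448 to 1836 calls in the mean, 34 to 352 for ILC1l against cNK, 11 to 840 and 7 to 804 for the αβ and γδ lineages, 16 to 563 among the differences, 239 to 603 with a log2 of at least 1 in each lineage and 46 to 467 in the TCRb+CD8a+NK1.1+ comparison. Of the 90 named genes called in the mean, 77 stayed called in all 12 such fits, and none of these 90 changed sign in them, while Pdcd1, Fasl and Mki67, not called in any of these fits, did in 1 or 2 fits with values of -0.05 to 0.11. The 11 genes called in all 3 lineages became 2 to 19. Without ILC1l and cNK, 34 named genes lost their call and kept their sign. A further 5 called genes lost their call and changed sign, which were Cd8a (-0.14), Cxcr6 (-0.38), Lag3 (-0.10), Il18rap (0.37) and Adgrg1 (-0.80). The mean also changed sign for Trac (-0.51) and Prf1 (0.34), called in neither fit. Without the γδ pair it changed sign for Atp8b4, called in that fit (-0.91), and for Pdcd1 (0.97), Serpinb9 (-0.54), Fasl (-0.56), Tbx21 (-0.29) and Mki67 (-0.12), called in neither. Without the αβ pair it did for Pdcd1 (1.37), Gzma (-0.41) and Serpinb9 (-0.04), called in neither.

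Same-numbered libraries of a lineage were correlated in their deviations with r of 0.15, 0.06 and 0.07 over 9035 genes, within the range of -0.1 to 0.18 over all 15 population pairs, so the replicate numbers were not taken as pairing. With a replicate block the mean gave 906 calls, 17 genes were called in all 3 lineages and the TCRb+CD8a+NK1.1+ comparison 421. Differences of a log2 of 1 were seldom recovered at this depth and replication in simulated data.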
